A study of Homo sapiens with 6 samples.

Results

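The 10 tumour-side immune checkpoint ligand genes described here are CD274, PDCD1LG2, CD276, VTCN1, CD47, LGALS9, NECTIN2, PVR, VSIR and HHLA2. They were chosen by name and matched to the deposited Ensembl identifiers by symbol, and all 10 were found among 63241 identifiers. RNA-seq had been performed on MDA-MB-231 cells, an established line of human triple-negative breast cancer with the genotype given as WT. The NCD group (3 libraries) was treated with 5 μM NCD, the plant alkaloid nitidine chloride, for 24 h, and the DMSO group (3 libraries) received 0.1% DMSO, the solvent. The cells were grown as a single line without immune cells, and the study's methods name DMSO as the solvent of NCD in the viability assay, while the sources used here do not give the share of DMSO in the NCD wells that were sequenced. The labels do not say whether the 3 libraries of a group came from separate cultures, so the p-values measure the spread between these libraries, which may be technical.

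Checkpoint ligands are surface or secreted proteins through which a cell damps the immune cells that touch it. PD-L1 (CD274) and PD-L2 (PDCD1LG2) bind PD-1 on T cells, and CD47 binds SIRPα on macrophages as a "do not eat me" signal. PVR (CD155) and NECTIN2 (CD112) bind TIGIT and the activating receptor CD226 on T and natural killer cells, and NECTIN2 also binds PVRIG. CD276 (B7-H3), VTCN1 (B7-H4), HHLA2 and VSIR (VISTA) are B7-family proteins, and LGALS9 (galectin-9) binds glycans on TIM-3 and other receptors. Interferon-gamma induces CD274 through the kinases JAK1 and JAK2 and the factor IRF1, and triple-negative breast cancers are known for PD-L1 expression.

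The promoter sequences of the ligands whose mRNA differed are shown first, because the interferon route acts at such elements in CD274. Each is the 250 bases before the RefSeq start on GRCh38.p14, written 5′ to 3′ on the strand of the gene, with capitals marking matches to the searched motifs. The CD274 sequence is chr9:5450292-5450541 on the plus strand, and that of VSIR is chr10:71773521-71773770 on the minus strand. That of NECTIN2 is chr19:44846047-44846296 and that of PVR is chr19:44643660-44643909, both on the plus strand. The sequences of CD274, NECTIN2 and PVR run into the gene coordinates given below, which come from GENCODE 29.
CD274: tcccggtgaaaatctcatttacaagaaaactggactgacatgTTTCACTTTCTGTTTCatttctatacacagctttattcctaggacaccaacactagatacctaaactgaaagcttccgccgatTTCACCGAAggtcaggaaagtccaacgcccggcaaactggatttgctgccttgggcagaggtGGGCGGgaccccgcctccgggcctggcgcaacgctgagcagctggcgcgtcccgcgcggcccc
VSIR: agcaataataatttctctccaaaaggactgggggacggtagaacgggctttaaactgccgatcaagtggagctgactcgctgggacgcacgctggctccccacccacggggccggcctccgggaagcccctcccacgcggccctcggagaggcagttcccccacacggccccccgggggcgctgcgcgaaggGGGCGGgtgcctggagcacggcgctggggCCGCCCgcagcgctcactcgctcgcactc
NECTIN2: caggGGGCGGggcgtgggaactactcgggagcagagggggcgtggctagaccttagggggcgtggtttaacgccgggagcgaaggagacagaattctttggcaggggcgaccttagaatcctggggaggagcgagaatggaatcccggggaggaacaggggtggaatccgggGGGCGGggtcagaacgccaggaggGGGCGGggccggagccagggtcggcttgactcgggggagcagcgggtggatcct
PVR: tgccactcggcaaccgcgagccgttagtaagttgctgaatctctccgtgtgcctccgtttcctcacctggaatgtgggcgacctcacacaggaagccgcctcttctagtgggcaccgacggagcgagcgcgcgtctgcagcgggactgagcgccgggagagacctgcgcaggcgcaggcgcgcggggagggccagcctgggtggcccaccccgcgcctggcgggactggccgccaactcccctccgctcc

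The motifs searched on both strands were the STAT site GAS (TTCNNNGAA), the interferon element ISRE (GAAA, then NN, then GAAA), AP-1 (TGANTCA), CRE (TGACGTCA), CARE (TGATGNAA), the GC box (GGGCGG), HRE (ACGTG) and the E-box (CACGTG), which holds the HRE letters. HRE and E-box matches were not put in capitals, and none fell in these 4 sequences. In CD274 there was 1 GAS match that began 125 bases before the start, 2 overlapping ISRE matches at 208 and 202 bases, and 1 GC box at 63 bases. Of all 35116 promoters of the same length, 6.57% held a GAS match, 3.02% an ISRE match and 42.6% a GC box. VSIR held 2 GC boxes and NECTIN2 held 3, and PVR held none of the 8 motifs. CD274 was the least GC-rich of these 4 sequences, with 54.8% G or C against 67.6% for NECTIN2, 69.6% for VSIR and 70.0% for PVR. A match is a description of letters and does not mark a bound site. Promoters were matched for 9 of the 10 ligands, all except PDCD1LG2.

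The libraries held 18223594 to 19410833 counts with DMSO and 18232169 to 21629653 with NCD. Counts were scaled to CPM, counts per 1e6 reads of the library size corrected by edgeR's TMM factors, and 15295 genes passed the filter on low counts. A gene was called when its adjusted p was under 0.05 and its log2 fold change was over 1 in size, and "passed the test" refers to the adjusted p alone, at any fold. Adjusted p-values come from the quasi-likelihood test of edgeR, with the Benjamini-Hochberg method over all tested genes. By this rule 31.0% of tested genes were called, 13.5% higher and 17.5% lower with NCD, and 69.3% passed at any fold. Scaling by library totals gave 2793 higher and 2181 lower in place of 2067 and 2669, and shifted the median of the log2 fold changes, which was 0.04 with TMM, by 0.20. Of 10 markers of breast lines, VIM, a mesenchymal filament, stood at 3060 CPM with DMSO, and ESR1 and PGR, the hormone receptors that triple-negative cells lack, had at most 7 and 3 counts in any library. Of the 7 markers tested, 1 was called, the adhesion receptor CD44 (977 to 277 CPM, log2 fold change -1.82, adjusted p = 4.18e-08). At any fold all 7 passed, 5 higher (KRT8, KRT18, KRT19, EPCAM and ERBB2) and 2 lower, beside 69.3% of all tested genes. ERBB2 encodes HER2, the other receptor that the triple-negative label refers to. Its mRNA went from 37.2 to 61.0 CPM (log2 fold change 0.71, adjusted p = 1.92e-05). Of 14 leukocyte markers, PTPRC, CD3D, CD3E, CD4, MS4A1, ITGAM, FCGR3A and NCAM1 had at most 1 count in any library, with MS4A1 and ITGAM at 0 in all 6. CD8A (9.93 to 18.8 CPM, higher), CD68, HLA-DRA (37.8 to 26.9 CPM, lower) and CD14 could be tested, and none was called. The summed level of the 14 markers was 124 to 141 CPM with DMSO and 131 to 143 CPM with NCD. In bulk RNA, fewer expressing cells and less RNA per cell cannot be told apart.

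The ligands moved in different directions with NCD. VSIR rose 3.39-fold, PDCD1LG2 fell to 0.254 of its DMSO level, CD274 fell to 0.689, PVR rose 1.21-fold and NECTIN2 rose 1.17-fold. CD276 and CD47 did not pass the test, and VTCN1, LGALS9 and HHLA2 were below the filter. Of the 7 ligands tested, 2 were called (1 higher, 1 lower), beside 31.0% of all tested genes (13.5% higher, 17.5% lower). At any fold 5 of the 7 passed (3 higher, 2 lower), beside 69.3% of all tested genes (35.3% higher, 34.1% lower). The 2 groups of libraries did not overlap for the same 5, beside 72.6% of all tested genes (37.3% higher, 35.3% lower). The median log2 fold change of the 7 was -0.08. The summed level of all 10 ligands was 332 to 346 CPM with DMSO and 350 to 362 CPM with NCD.

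**Figure D1:**
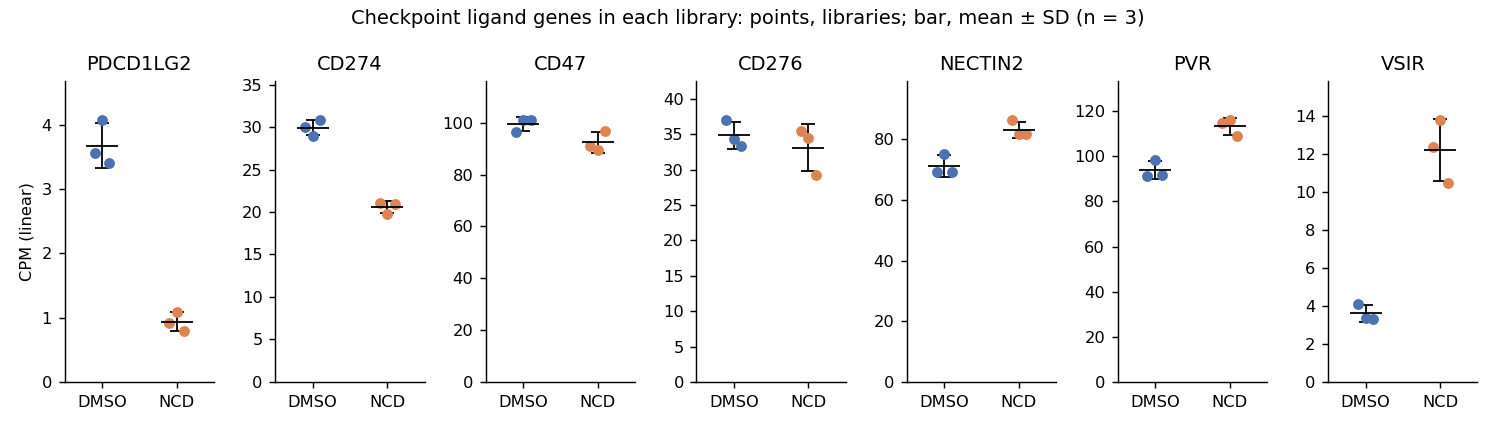
Level of the 7 tested ligand genes in CPM on linear axes that start at 0, with 1 point for each library and bars for mean ± SD (n = 3). PDCD1LG2 and CD274 lie lower in every NCD library, NECTIN2, PVR and VSIR lie higher, and the groups of CD47 and CD276 overlap.

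CD274 (ENSG00000120217; chromosome 9, 5450503 to 5470566, plus strand) encodes PD-L1. Its counts were 498, 512 and 561 under DMSO and 483, 382 and 449 under NCD, which is 30.0, 29.0 and 30.8 CPM against 21.1, 19.8 and 20.9 CPM. Every NCD library lay below every DMSO library. The mean fell from 29.9 ± 0.895 to 20.6 ± 0.73 CPM (SD, n = 3), a log2 fold change of -0.54 (SE 0.07, 95% interval -0.71 to -0.37, adjusted p = 0.000185). It was not called, since the change was smaller than the fold threshold. Fits that left out 1 library gave log2 fold changes of -0.58 to -0.51.

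PDCD1LG2 (ENSG00000197646; chromosome 9, 5510570 to 5571254, plus strand) encodes PD-L2, the other PD-1 ligand. Its level was 3.56, 4.07 and 3.40 CPM with DMSO, from 59, 72 and 62 counts. With NCD it was 0.918, 1.09 and 0.793 CPM, from 21, 21 and 17 counts. The highest NCD library lay far below the lowest DMSO library. The mean fell from 3.68 ± 0.353 to 0.932 ± 0.147 CPM (SD, n = 3), with a log2 fold change of -1.98 (SE 0.21, adjusted p = 3.21e-05), lower than all but 6.9% of tested genes.

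Both PD-1 ligands fell, and PDCD1LG2 fell further. The ratio of CD274 to PDCD1LG2 within a library was 8.44, 7.11 and 9.05 with DMSO and 23.0, 18.2 and 26.4 with NCD. The groups did not overlap, and the log2 ratio was 1.45 higher with NCD. The exact two-sided permutation test gave p = 0.1, the smallest that 3 against 3 libraries allow, and an adjusted p of 0.1 over the 3 ratios tested. This ratio does not depend on the scaling of the libraries. Leaving out each library gave 1.33 to 1.59.

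CD274 and PDCD1LG2 lie 40.0 kb apart on chromosome 9, and the tested protein-coding genes on either side of the pair were lower as well. PLGRKT, a plasminogen receptor gene, lies 12.6 kb from CD274 and had a log2 fold change of -1.20 (SE 0.14, adjusted p = 5.91e-05). RIC1, which encodes a partner in a Golgi exchange factor, lies 57.8 kb from PDCD1LG2 and had a log2 fold change of -1.40 (SE 0.17, adjusted p = 7.59e-05). The JAK2 gene on the same chromosome fell from 6.87, 8.71 and 5.76 CPM to 2.18, 2.54 and 2.28 CPM, with no overlap and a log2 fold change of -1.61 (SE 0.19, adjusted p = 6.2e-05). PLGRKT spans 79.9 kb, RIC1 147.5 kb and JAK2 143.8 kb. With all tested genes divided into 10 groups by span, the median log2 fold changes of their groups were -0.35, -0.93 and -0.93. Whether place or span has a part in these changes was not tested. The ratio of CD274 to JAK2 rose from 4.37, 3.32 and 5.34 to 9.66, 7.80 and 9.16, a log2 difference of 1.05 (exact permutation p = 0.1, adjusted 0.1 over the 3 ratios). Without DMSO replicate 2 this difference was 0.87.

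CD47 (ENSG00000196776; chromosome 3, 108043094 to 108091862, minus strand) had 96.5, 101 and 101 CPM with DMSO and 91.0, 89.5 and 97.0 CPM with NCD. The ranges overlapped. The means were 99.6 ± 2.70 and 92.5 ± 3.98 CPM (SD, n = 3), and the log2 fold change was -0.11 (SE 0.06, 95% interval -0.24 to 0.03, adjusted p = 0.139). Scaling by library totals turned its direction, to 0.09, and without NCD replicate 3 it was -0.16 (adjusted p = 0.0418). Its receptor gene SIRPA, which macrophages use to read CD47, was also detected in the line and rose from 6.16 ± 1.10 to 9.99 ± 0.0902 CPM (SD, n = 3), a log2 fold change of 0.69 (SE 0.14, adjusted p = 0.00195). THBS1, the secreted matrix protein thrombospondin-1 that binds CD47, fell from 293 ± 8.33 to 129 ± 3.96 CPM (SD, n = 3), a log2 fold change of -1.18 (SE 0.06, adjusted p = 1.93e-07, and -0.98 with library totals). QPCTL, the enzyme that modifies CD47 so that SIRPα can bind, had a log2 fold change of 0.38 (adjusted p = 0.0312). BBX, the nearest tested gene on the left of CD47 at 231.8 kb, had a log2 fold change of -3.47. IFT57, 68.9 kb to the right, had 0.07 (adjusted p = 0.449).

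PVR (ENSG00000073008; chromosome 19, 44643798 to 44663583, plus strand) had 91.2, 98.6 and 91.8 CPM with DMSO and 115, 116 and 109 CPM with NCD. All 3 NCD libraries lay above the DMSO libraries. The mean rose from 93.9 ± 4.15 to 113 ± 3.69 CPM (SD, n = 3). The log2 fold change was 0.27 (SE 0.06, 95% interval 0.13 to 0.41, adjusted p = 0.00318). With ribosomal protein genes as the reference it was 0.25 and did not pass (adjusted p = 0.176). CEACAM19 overlaps PVR on the same strand and had up to 124.08 counts, and CEACAM16-AS1 overlaps it on the opposite strand with up to 51 counts, where PVR had 1512.86 to 2628.35. Whether the counting used strand is not given in the sources used here, so reads of these genes may not be fully separated.

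NECTIN2 (ENSG00000130202; chromosome 19, 44846175 to 44889228, plus strand) had 69.1, 75.3 and 69.3 CPM with DMSO and 86.3, 81.7 and 81.7 CPM with NCD. The groups did not overlap, with means of 71.2 ± 3.48 and 83.3 ± 2.66 CPM (SD, n = 3). The log2 fold change was 0.23 (SE 0.06, 95% interval 0.08 to 0.37, adjusted p = 0.0113). It did not pass without DMSO replicate 1 (0.18, adjusted p = 0.0701), without DMSO replicate 3 (0.18, adjusted p = 0.0856), without NCD replicate 1 (0.17, adjusted p = 0.0872) or with ribosomal protein genes as the reference (0.21, adjusted p = 0.290). The PVR to NECTIN2 ratio within a library was 1.32, 1.31 and 1.32 with DMSO and 1.33, 1.42 and 1.33 with NCD. The log2 ratio was 0.05 higher with NCD (exact permutation p = 0.1, adjusted 0.1 over the 3 ratios), and 0.02 without NCD replicate 2.

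Their nearest tested neighbours on chromosome 19 gave different values. BCAM, a laminin-binding adhesion molecule left of NECTIN2, rose with a log2 fold change of 1.17, and TOMM40, a mitochondrial import pore 1.3 kb to the right, fell with -0.21 (adjusted p = 0.0248). BCL3, an NF-κB regulator 84.1 kb right of PVR, rose with 0.63 (adjusted p = 0.0049), and ZNF180, 143.3 kb to the left, had 0.30 (adjusted p = 0.0511).

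VSIR (ENSG00000107738; chromosome 10, 71747559 to 71773498, minus strand) encodes VISTA, a B7-family protein that acts as a ligand and as a receptor and is best known on myeloid cells. Its counts were 68, 60 and 61 under DMSO and 284, 267 and 226 under NCD. These are 4.10, 3.39 and 3.34 CPM against 12.4, 13.8 and 10.5 CPM, so the lowest NCD library was far above the highest DMSO library. The mean rose from 3.61 ± 0.421 to 12.3 ± 1.64 CPM (SD, n = 3), a log2 fold change of 1.76 (SE 0.15, 95% interval 1.42 to 2.10, adjusted p = 7.34e-06), higher than that of 95.5% of tested genes. CDH23 overlaps it on the opposite strand and had at most 3 counts. The nearest tested gene on the left of VSIR, SLC29A3, lies 366.1 kb away and had a log2 fold change of 1.06 (adjusted p = 4.58e-05). PSAP, the saposin precursor, lies 42.8 kb to the right and had 0.56 (adjusted p = 2.95e-05).

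CD276 (ENSG00000103855; chromosome 15, 73683966 to 73714518, plus strand) encodes B7-H3, which many carcinomas carry. It had 37.0, 34.4 and 33.3 CPM with DMSO and 35.5, 34.5 and 29.3 CPM with NCD, and the groups overlapped. The means were 34.9 ± 1.91 and 33.1 ± 3.32 CPM (SD, n = 3). The log2 fold change was -0.08 (SE 0.09, 95% interval -0.29 to 0.13, adjusted p = 0.479). Library totals turned the direction, to 0.12 (adjusted p = 0.229). Of its neighbours, NPTN was called lower (114 to 56.8 CPM, adjusted p = 5.58e-07) and INSYN1 was called higher from a level near 0 (0.0183 to 0.874 CPM).

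**Figure D2:**
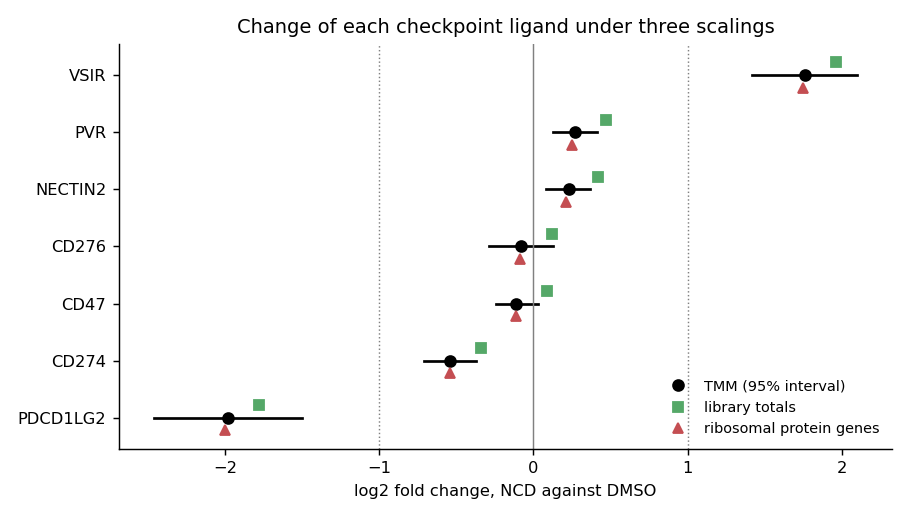
Log2 fold change of NCD against DMSO for the 7 tested ligands: circles with 95% intervals for TMM, squares for library totals, triangles for ribosomal protein genes as reference, and dotted lines at the fold threshold. With TMM, VSIR lies above and PDCD1LG2 below the threshold of 1 in size, CD274 lies below 0 at -0.54, and the intervals of CD276 and CD47 include 0.

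The remaining ligands were at or near 0. LGALS9 (ENSG00000168961; chromosome 17, 27629798 to 27649560, plus strand) was detected with 2, 5 and 7 counts under DMSO, and with 5, 8 and 5 under NCD. The ratio of NCD to DMSO was 1.06 with an exact 95% counting interval of 0.498 to 2.30, so no difference was detectable at this depth. Its near-identical copies LGALS9B and LGALS9C had 21.05 to 28.06 and 18.94 to 28.48 counts with DMSO and 10.96 to 13.75 and 8.04 to 13.25 with NCD, and both were called lower (log2 fold changes -1.24 and -1.40). Reads of the 3 copies may have been divided between them, so each single value is uncertain. Their sum was 42, 59 and 54 counts under DMSO and 24, 30 and 32 under NCD. HHLA2 (ENSG00000114455; chromosome 3, 108296490 to 108378285, plus strand) was detected with 2, 3.24 and 0 counts under DMSO, and with 0, 1.93 and 1.04 under NCD. Its NCD to DMSO ratio was 0.495 (exact 95% counting interval 0.0769 to 2.54). VTCN1 (ENSG00000134258; chromosome 1, 117143587 to 117210960, minus strand) had 0 counts in all 6 libraries, which allows up to 3 counts, or 0.131 to 0.181 CPM, in a library. These intervals and limits cover counting error only.

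Levels were compared between genes as CPM per kb of annotated exon. With DMSO the order was PVR (26.7 CPM per kb), NECTIN2 (19.0), CD47 (12.1), CD274 (7.28), CD276 (6.30), PDCD1LG2 (1.55), VSIR (0.704), LGALS9 (0.0459), HHLA2 (0.0279) and VTCN1 (0). Neighbours in this order did not overlap across libraries, except LGALS9 with HHLA2 and HHLA2 with VTCN1. With NCD, CD276 (5.97 CPM per kb) stood above CD274 (5.01), and VSIR (2.39) stood above PDCD1LG2 (0.394). The other places were the same, with PVR at 32.2, NECTIN2 at 22.2 and CD47 at 11.2 CPM per kb. Only HHLA2 and VTCN1 overlapped with NCD. With the length of the longest transcript in place of all exons, PVR and NECTIN2 overlapped in both groups and CD276 stood above CD274 also with DMSO, so of these exchanges that of VSIR with PDCD1LG2 was seen under both lengths.

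**Figure D3:**
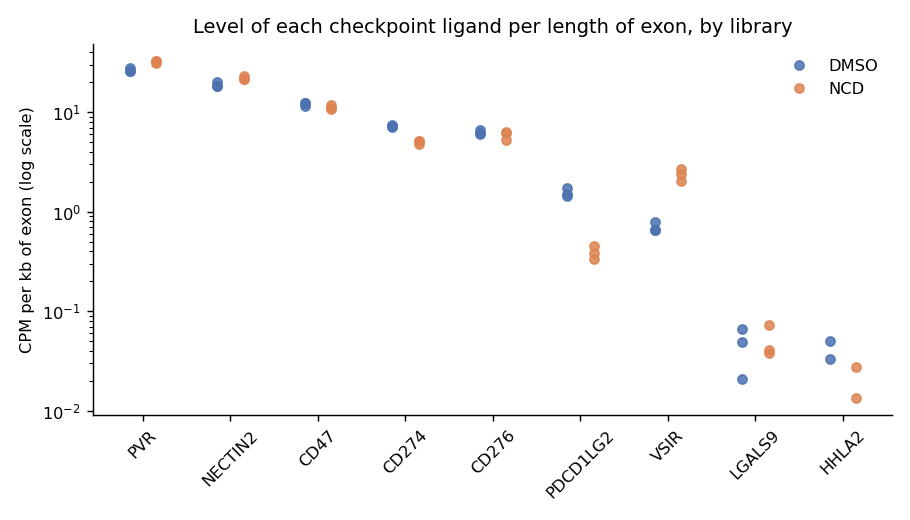
Level of the ligands in CPM per kb of exon on a log axis, 1 point for each library. Libraries at 0 (all 6 of VTCN1 and 1 per group of HHLA2) cannot be drawn on this axis. PVR and NECTIN2 lie at the top, PDCD1LG2 and VSIR exchange places between the groups, and LGALS9 and HHLA2 stay under 0.1 CPM per kb.

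The genes around the ligands were described with 7 hand-written lists holding 121 distinct genes, of which 90 were tested. With NCD 15 were called higher and 20 lower, 38.9% beside 31.0% of all genes, and their median log2 fold change was -0.05. Scaling by library totals gave 16 called higher and 17 lower. Lists are given by their counts, without a test of the list. Of all tested genes, 13.5% were called higher and 17.5% lower, and 69.3% passed at any fold.

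Of 15 receptors and binding partners of the ligands, 4 could be tested. PDCD1 and TIGIT, the T cell receptors of CD274 and PVR, had at most 1 and 2 counts in a library, and the untested members reached at most 9.44 counts. Among the 4, SELPLG, a partner of VISTA, was called higher at a low level (0.494 to 1.14 CPM, log2 fold change 1.19, adjusted p = 0.00694), and with at least 10 counts required in every library it was not tested. NECTIN3, a binding partner of PVR and NECTIN2, was called lower (58.4 ± 2.39 to 16.9 ± 0.986 CPM, SD, n = 3, log2 fold change -1.79, adjusted p = 1.22e-07). SIRPA passed at any fold, and RGMB, a partner of PD-L2, had -0.09 (adjusted p = 0.329). The median of the 4 was 0.30.

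Of 16 other B7 and butyrophilin genes, 10 were tested, 1 was called lower, 2 more passed higher at any fold, and 7 did not pass (median 0.26). ILDR2, a B7-like protein, fell from 25.6 to 10.6 CPM (log2 fold change -1.27, adjusted p = 5.73e-06). BTN2A1, which takes part in the sensing of phosphoantigens by gamma delta T cells, rose from 37.6 to 64.4 CPM (0.77, adjusted p = 1.35e-05).

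Of 22 other inhibitory ligands and enzymes, 15 were tested, with 4 called higher, 1 called lower and a median of 0.23. With library totals 5 were called higher. CD24, a ligand of Siglec-10 on macrophages, rose from 5.56 ± 0.0355 to 31.1 ± 1.70 CPM (SD, n = 3, log2 fold change 2.48, adjusted p = 5.64e-08). HLA-E, the ligand of NKG2A, rose from 175 ± 5.51 to 461 ± 15.7 CPM (SD, n = 3, log2 fold change 1.39, adjusted p = 9.36e-08). CEACAM1 rose from 1.09 to 3.80 CPM (1.79, adjusted p = 0.000738). NT5E, the enzyme CD73 that makes adenosine, fell from 732 ± 25.9 to 277 ± 12.0 CPM (SD, n = 3, log2 fold change -1.40, adjusted p = 1.29e-07).

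Of 12 costimulatory and TNF-family ligands, 5 were tested, 2 were called higher and the median was 0.63. ICAM1, the adhesion ligand of LFA-1, rose from 44.2 ± 3.33 to 140 ± 1.80 CPM (SD, n = 3, log2 fold change 1.66, adjusted p = 9.36e-08). TNFSF9 (4-1BBL) rose from 3.71 to 10.8 CPM (1.54, adjusted p = 1.4e-05). CD58 was lower at any fold (-0.69, adjusted p = 0.000146).

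All 16 genes of the interferon-gamma axis were tested, with 4 called higher, 4 called lower, 5 higher and 8 lower at any fold, and a median of -0.25. IRF1, which binds the ISRE in the CD274 promoter, rose from 13.8 ± 0.827 to 56.5 ± 1.57 CPM (SD, n = 3, log2 fold change 2.04, adjusted p = 6.22e-08). STAT2 (1.55, adjusted p = 1.24e-06) and IRF9 (1.42, adjusted p = 5.02e-07), which form a complex at the ISRE, rose as well. JAK1 fell with a log2 fold change of -1.15 (adjusted p = 1.77e-06), beside -1.61 for JAK2. With library totals JAK1 was -0.95, under the fold threshold, which left 3 genes of the list called lower. PTPN1 (-1.27, adjusted p = 1.5e-07), a phosphatase of JAK2, and PIAS1 (-1.44, adjusted p = 2.17e-06), a SUMO ligase that restrains interferon signalling, fell too. In the same libraries in which the transcription factor genes IRF1, IRF9 and STAT2 rose, CD274 fell.

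All 18 other regulators of CD274 transcription were tested, with 3 called higher, 8 called lower and a median of -0.90. With library totals 7 were called lower. ATF3 (3.21), DDIT3 (2.20) and FOS (2.39), genes of the stress and immediate early responses, rose on the log2 scale. EGFR (-2.61), a receptor kinase, and TEAD1 (-3.34) and YAP1 (-1.42), partners of the Hippo pathway, fell. EGFR went from 170 ± 11.9 to 27.9 ± 2.06 CPM (SD, n = 3, adjusted p = 2.65e-08). EGFR and TEAD1 lie in the group of longest span, with a median of -2.09, and YAP1 in a group with -0.93.

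All 22 regulators of PD-L1 or CD47 protein were tested, with 1 called higher, 5 called lower, 5 higher and 14 lower at any fold, and a median of -0.29. The 27.3% called stood beside 31.0% of all tested genes, of which 35.3% were higher and 34.1% lower at any fold. With library totals 4 were called lower, since THBS1 was then at -0.98. GSK3B (-3.10, adjusted p = 5.72e-08), a kinase that marks PD-L1 for degradation, and BTRC (-2.45, adjusted p = 4.86e-07), its ubiquitin ligase partner, fell. ADAM10, a protease that sheds PD-L1, fell with -2.75 (adjusted p = 6.12e-08). GSK3B, BTRC and ADAM10 span 273.1, 203.3 and 161.2 kb. They lie in the group of longest span, where the median of all tested genes was -2.09. Whether span has a part in their changes was not tested. CMTM4 (-0.85), ZDHHC3 (-0.70) and COPS5 (-0.22), also in this list, passed lower at any fold. HIP1R, which directs PD-L1 to the lysosome, rose with 1.04 (adjusted p = 2.81e-06), but fell under the fold threshold without DMSO replicate 1 (0.97) and without NCD replicate 1 (0.99). CMTM6, which keeps PD-L1 on the cell surface, had 286 ± 9.48 and 289 ± 1.91 CPM (SD, n = 3, log2 fold change 0.01, adjusted p = 0.847), and with library totals it was higher (0.21, adjusted p = 0.00337). Protein was not measured in these files.

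**Figure D4:**
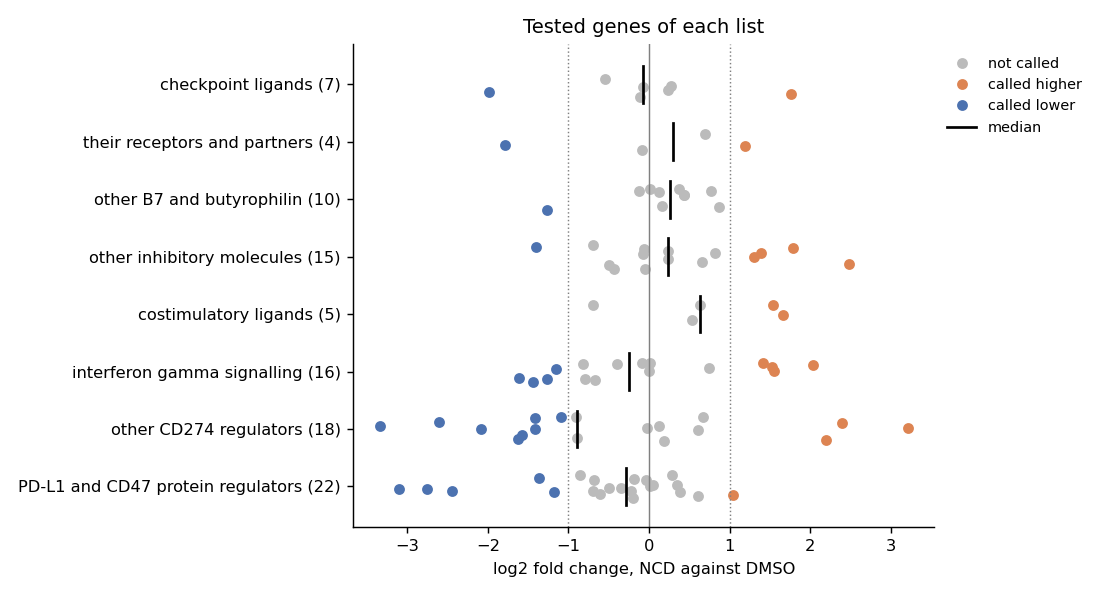
Log2 fold change of NCD against DMSO for the tested genes of the ligand list and the 7 pathway lists, with 1 point for each gene, coloured by call, a bar for the median of each list and dotted lines at the fold threshold. Among the 7 pathway lists, the regulators of CD274 transcription have the lowest median, -0.90, and the costimulatory ligands the highest, 0.63.

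Gene span moved with the change over the whole table, so each ligand was set beside genes of like span, with the tested genes divided into 10 equal groups by span. The group medians of the log2 fold change were 0.24 to 0.43 for the 4 groups of shortest span and -2.09 for the group of longest span. CD274 spans 20.1 kb and lies in a group with a median of 0.43, and its own value was -0.54. PVR spans 19.8 kb, lies in the same group and had 0.27. PDCD1LG2 spans 60.7 kb, with -1.98 against a median of -0.35, and VSIR spans 25.9 kb, with 1.76 against 0.32. CD276, CD47 and NECTIN2 had -0.08, -0.11 and 0.23 against medians of 0.11, -0.03 and -0.03. Whether span has a part in the change of any ligand was not tested.

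**Figure D5:**
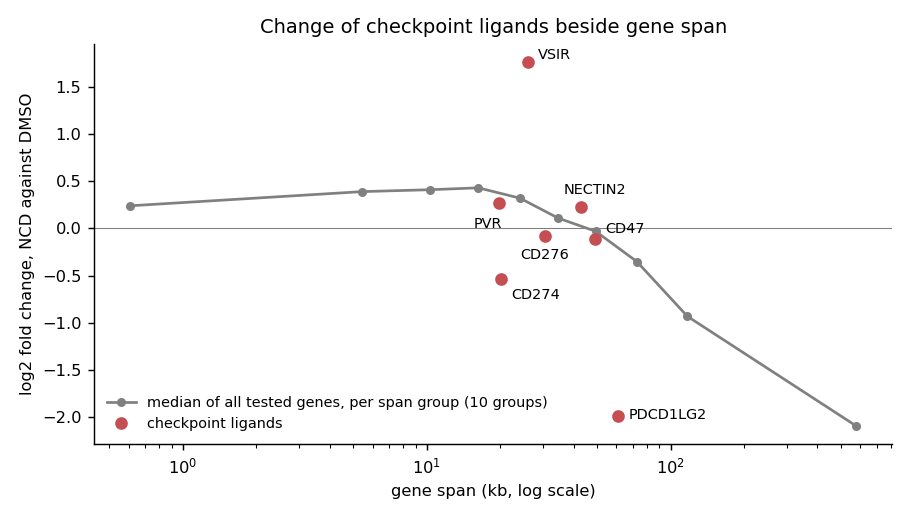
Log2 fold change of the 7 tested ligands against gene span in kb (log axis), with the median of all tested genes in each of 10 span groups as a line. CD274 and PDCD1LG2 lie below the line and VSIR above it.

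The genes whose level followed CD274 most closely over the 6 libraries were ENSG00000259985, PDIA5 and PARM1, with Pearson's r of log2(CPM + 1) of 0.999, 0.999 and 0.998. Their log2 fold changes were -1.05, -1.76 and -1.40. The 6 libraries form 2 treatment groups, which all genes share, and 26.9% of 15288 compared genes had r over 0.9, so this is a description with no test.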

How the data were processed

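RNA-seq of 3 DMSO and 3 NCD libraries was analysed. The deposited expected counts were made by the authors with HiSat2 alignment to GRCh38 and RSEM estimation per Ensembl gene, without normalization. The annotation release, strand setting and versions are not given in the sources used here. The text description of NCD replicates 2 and 3 names other cell line numbers, but their cell line field gives MDA-MB-231. In each library 25 stray text lines were skipped. Symbols were found for 62666 of 63241 identifiers, and spans and exons came from GENCODE 29 (58228 identifiers). No 2 libraries of a group agreed within sampling noise (lowest chi-square per degree of freedom 2.07).

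Expected counts were rounded and fitted with edgeR 4.0.16 in R 4.3.3 (filterByExpr, TMM, quasi-likelihood test, all genes, Benjamini-Hochberg adjustment). Ratios were tested with exact two-sided permutation tests in scipy 1.17.1. The scripts were tested on simulated data. Alternatives were DESeq2 1.42.0, limma-voom (limma 3.58.1), library totals or ribosomal protein genes as reference, other filters and thresholds, a prior count of 2, a replicate block and leaving out each library. The study itself used DESeq2. Promoters are from RefSeq on GRCh38.p14, trimmed to 250 bases.

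The ligands and lists were chosen with earlier results of these data known. Named genes are all 10 ligands, JAK2, IRF1, CMTM6, SIRPA and THBS1, up to 3 called genes per list and direction with the smallest p, the nearest tested protein-coding neighbours, and the 3 genes most like CD274. PDCD1, TIGIT, RGMB, BTN2A1, CD58, QPCTL, BTRC, CMTM4, ZDHHC3, COPS5, the genes that overlap or copy a ligand, and the markers were named after their values were seen. Some items within these rules and lists are left out here.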

Additional observations from a re-analysis of the deposited data

How the results depend on the processing

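CD274, PDCD1LG2 and VSIR kept their direction and their side of the threshold under every alternative run, with CD274 between -0.58 and -0.34. With library totals CD276 was 0.12 and CD47 0.09, against negative values with TMM. NECTIN2 (0.21) and PVR (0.25) did not pass with ribosomal protein genes as the reference. Leaving out each library gave 0.17 to 0.26 for NECTIN2 and -0.16 to -0.08 for CD47. CMTM6, near 0, was -0.01 with DESeq2 and with the filter of 10 counts per library, and -0.02 to 0.02 without each library. With no fold threshold 10602 genes, 5 ligands and 67 pathway genes passed. With library totals 33 pathway genes were called in place of 35, with 16 higher and 17 lower in place of 15 and 20. The calls lost included JAK1 (-0.95) and THBS1 (-0.98). Called genes numbered 4736, and 3683 with that filter, 5545 with no filter, 4609 with DESeq2 and 4653 to 5049 without each library. The replicate numbers gave no pairing (correlations 0.216, -0.185 and 0.023). The replicate block gave 4723 genes, 2 ligands and 35 pathway genes, with VSIR at 1.76, and changed no ligand's call. The causes were not tested. Genes with a few counts, such as LGALS9 and HHLA2, cannot be measured at this depth.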
